A study of Mus musculus with 2 samples.

Results

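The coding Hox genes were followed in 2 single-cell RNA sequencing libraries of mouse iMPCs. These induced myogenic progenitor cells are fibroblasts reprogrammed to a state like that of muscle stem cells. All rows of the count matrices whose symbol was Hoxa, Hoxb, Hoxc or Hoxd followed by a number were taken, which gave 39 of 25828 features. The Hoxa cluster held 11 of them on chromosome 6, the Hoxb cluster 10 on chromosome 11, the Hoxc cluster 9 on chromosome 15 and the Hoxd cluster 9 on chromosome 2. The study compared 2 ways of deriving iMPCs, with 1 library from 1 clone in each. The parent fibroblasts carried the genotype Tg:Pax7-nGFP/C57BL6;DBA2, a nuclear green reporter for Pax7 on a mixed background, and were taken from the embryonic torso after head and organs had been removed. Both clones were made with 4 rounds of transfection of synthetic MyoD mRNA in the presence of B18R, a decoy receptor for interferon. The first clone, F/R/C, grew in Forskolin (a cyclic AMP agonist), RepSox (a TGF-β receptor blocker) and CHIR (a Wnt activator) from derivation onward. The second, F/R/C+CP, received the same molecules and in addition CP, an inhibitor of JAK kinases. Cells were strained to remove myotubes before capture. The effect of CP cannot be told apart from that of the clone or the library in this design, so no test was possible and every interval given covers counting error only.

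Hox genes encode homeodomain transcription factors that stand in 4 clusters, each gene numbered by its place in the cluster and by its relation to genes of the same number in the other clusters, its paralogues. During development low-numbered genes are switched on first and toward the head, and high-numbered genes later and toward the tail and the ends of the limbs, so that the set of Hox genes a cell expresses records where in the body it came from. Fibroblasts and muscle stem cells keep much of this record in culture. The proteins bind DNA with partners of the TALE class (Pbx, Meis), and the clusters are held silent or active by Polycomb and Trithorax complexes and are opened by retinoic acid and Cdx proteins.

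After the filters the study states, 3962 F/R/C barcodes (71.5%) and 10834 F/R/C+CP barcodes (90.3%) were kept, with median depths of 7112 and 21844.5 UMIs (unique molecular identifiers, one per captured RNA molecule). The libraries shared 18 barcode sequences. No Hox gene was among the 2000 variable genes used for clustering in either library, so the clusters were made without them. Clusters of F/R/C were named Pax7-like (2140 barcodes), committed-like (695), muscle-like (510) and connective-like (287), and 330 barcodes in 3 clusters stayed unnamed. Those of F/R/C+CP were Pax7-like (6341), committed-like (2208), muscle-like (2031), pericyte or smooth muscle-like (195) and melanocyte-like (59). The label myogenic progenitor held in the markers: 6 of 9 Pax7-like, 7 of 7 committed-like and 12 of 12 muscle-like markers reached 10 counts per 1000000 UMIs (CPM) over the kept F/R/C+CP barcodes, and 8, 7 and 12 over those of F/R/C. Endothelial, immune and epithelial lists had no gene at 10 CPM in either library.

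Hox RNA was sparse. Summed over all kept barcodes, the 39 genes made up 89.7 CPM in F/R/C, from 2499 counts, and 162.4 CPM in F/R/C+CP, from 44067 counts. A Hox UMI was present in 42.9% of barcodes of the first library and 93.9% of the second, with a median of 0 and 4 Hox UMIs per barcode, at depths that differed as given above. Since each molecule is counted once at its 3′ end, levels are per UMI and were not divided by gene length. At least 1 count was found for 28 members in F/R/C, with 37 in F/R/C+CP, and Hoxc11 and Hoxd12 had none in either. A count of 0 over all kept barcodes allowed up to 0.108 CPM in F/R/C, with 0.0111 CPM in F/R/C+CP. The F/R/C library had 17 members at 1 CPM or more and 2 at 10 CPM or more, and the F/R/C+CP library had 18 and 7.

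Paralogues 6 to 8, in the middle of the clusters, gave 49.7% of Hox counts in F/R/C, or 44.6 CPM, and with CP 47.5%, or 77.2 CPM, while the cluster that supplied most counts differed. Paralogue 9 gave 8.29 and 38.2 CPM, and paralogues 10 to 13 gave 0.969 and 9.21 CPM. The head end, paralogues 1 to 3, stood at 12.2 CPM in F/R/C, with 8.97 CPM in F/R/C+CP. The Hoxc cluster of F/R/C supplied 45.3% of Hox counts, Hoxb 26.4%, Hoxa 23.4% and Hoxd 4.92%. The order changed in F/R/C+CP, where Hoxa supplied 46.5%, Hoxc 33.8%, Hoxd 15.6% and Hoxb 4.08%. The 13-group genes of the distal limb and tail were nearly absent, with at most 2 counts each in F/R/C and no more than 0.144 CPM for Hoxa13, Hoxb13, Hoxc13 and Hoxd13 in F/R/C+CP.

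**Figure D1:**
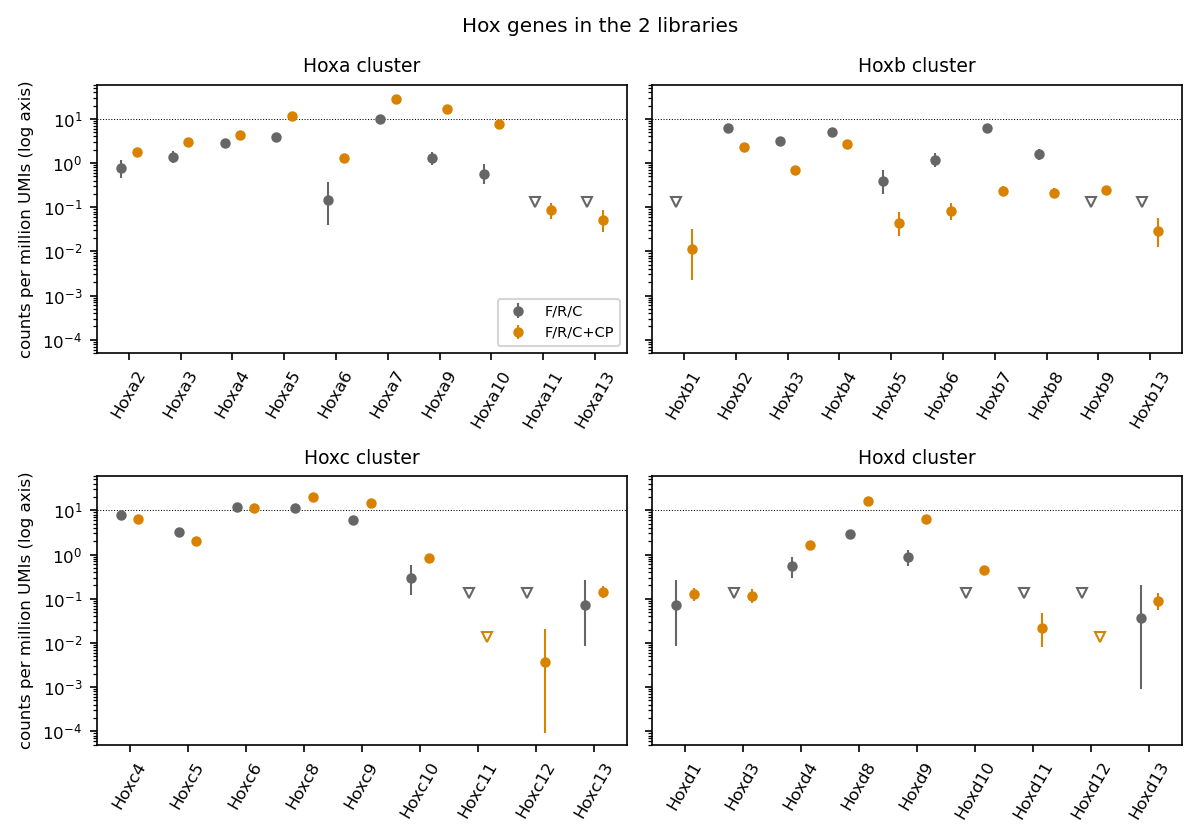
Level of the Hox genes in all kept barcodes of F/R/C (grey) or F/R/C+CP (orange), in counts per 1000000 UMIs on a log axis, 1 panel per cluster, with 95% Poisson intervals. Open triangles mark genes with no count at the upper limit of their interval, and the dotted line marks 10 CPM. Grey points lie above orange ones from Hoxb2 to Hoxb8 and below them from Hoxa2 to Hoxa10.

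The 7 members at 10 CPM or more in at least 1 library were Hoxa5, Hoxa7, Hoxa9, Hoxc6, Hoxc8, Hoxc9 and Hoxd8. Hoxc6, a thoracic-level gene, was level between the libraries at 11.9 CPM (95% interval 10.6 to 13.2) in F/R/C, with 11.4 CPM in F/R/C+CP. Hoxc8, which patterns the thoracic trunk, was 11.1 CPM in F/R/C, with 19.6 CPM in F/R/C+CP. Its neighbour Hoxc9 was 6.14 and 14.7 CPM. These Hoxc genes thus differed at most 2.39-fold between the libraries. In the Hoxa cluster Hoxa5, a gene of the neck-to-thorax boundary, was 3.88 CPM in F/R/C, with 11.8 CPM in F/R/C+CP. Hoxa7, the highest member in F/R/C+CP, was 9.69 and 27.8 CPM. Hoxa9, a gene of the lower trunk and limb, was 1.29 CPM in F/R/C, from 36 counts, and 16.9 CPM in F/R/C+CP. Hoxd8 was 2.91 CPM in F/R/C, with 16.5 CPM in F/R/C+CP. Some gene models overlap in GENCODE M21, an annotation of GRCm38 and not of the GRCm39 build of the counts. Those of Hoxa3 overlap Hoxa4, Hoxa5 and Hoxa6, and those of Hoxc5 overlap Hoxc6, Hoxc8, Hoxc9 and Hoxc10. Those of Hoxd3 overlap Hoxd4. The effect of such overlaps on the counts of these 11 genes was not tested.

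The comparison of F/R/C+CP with F/R/C asked how Hox RNA differed between the derivation with the JAK inhibitor and that without. A difference was counted where the log2 ratio of CPM was at least 1 or at most -1 and the gene had at least 10 counts over both sums. Of the 31 members that could be compared, 16 were higher in F/R/C+CP and 6 lower, beside 12.4% higher and 13.6% lower among all 17563 genes compared. The interval of the ratio was clear of 0 for 14 of the 16 and all 6, beside 9.47% and 12% of all genes. The members' median log2 ratio was 1.0, beside -0.12 over all genes compared. The median over genes of at least 50 CPM was -0.14, the shift against which ratios here can be read.

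Direction followed the cluster. In Hoxa 7 of 9 members compared were higher in F/R/C+CP and none lower. Hoxa9 and Hoxa10, its partner at the limb end of the cluster, each had a log2 ratio of 3.71 (intervals 3.24 to 4.22 and 3.01 to 4.52). Hoxa6 had 3.21 (1.84 to 5.09), from 4 counts in F/R/C, Hoxa5 1.60 and Hoxa7 1.52. In Hoxd 5 of 7 were higher and none lower, with Hoxd8 at 2.50 (2.18 to 2.84) and Hoxd9 at 2.89 (2.31 to 3.53). In Hoxc 3 of 7 were higher and none lower: Hoxc9 had 1.26, Hoxc8 0.82, Hoxc6 -0.06 (-0.23 to 0.11) and Hoxc4 -0.31. In Hoxb 6 of 8 were lower. Summed by cluster, Hoxa was 3.59-fold and Hoxd 5.73-fold higher in F/R/C+CP and Hoxc 1.35-fold higher, while Hoxb was 3.57-fold lower. Over all deposited barcodes the Hoxd fold was 3.51 and the Hoxd8 log2 ratio 1.62 (1.42 to 1.84), since the 1579 F/R/C barcodes left out by the filter held Hoxd8 at 12.9 CPM.

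Hoxb7 and Hoxb6 had the largest log2 ratios of either sign among the members. Hoxb7, a trunk-level gene, was 6.07 CPM (5.19 to 7.06) in F/R/C but 0.232 CPM in F/R/C+CP, a log2 ratio of -4.71 (-5.15 to -4.28). Hoxb6 had -3.87, Hoxb5 -3.16 and Hoxb8 -2.89. The head-end genes Hoxb2, Hoxb3 and Hoxb4, which pattern the hindbrain and neck, had -1.46, -2.18 and -0.83, so the difference was larger from Hoxb5 to Hoxb8 than from Hoxb2 to Hoxb4. Hoxb9 went the other way, with no count in F/R/C, with 0.243 CPM in F/R/C+CP, a log2 ratio of at least 1.18. Of its 66 counts, 27 (40.9%) lay in the 59 melanocyte-like barcodes, and without these the bound was 0.42, so Hoxb9 no longer counted as higher. Of the 63 Hoxb7 counts in F/R/C+CP, 33 (52.4%) lay in those barcodes, which held 0.428% of the UMIs, and the Hoxb7 ratio without them was -5.77.

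**Figure D2:**
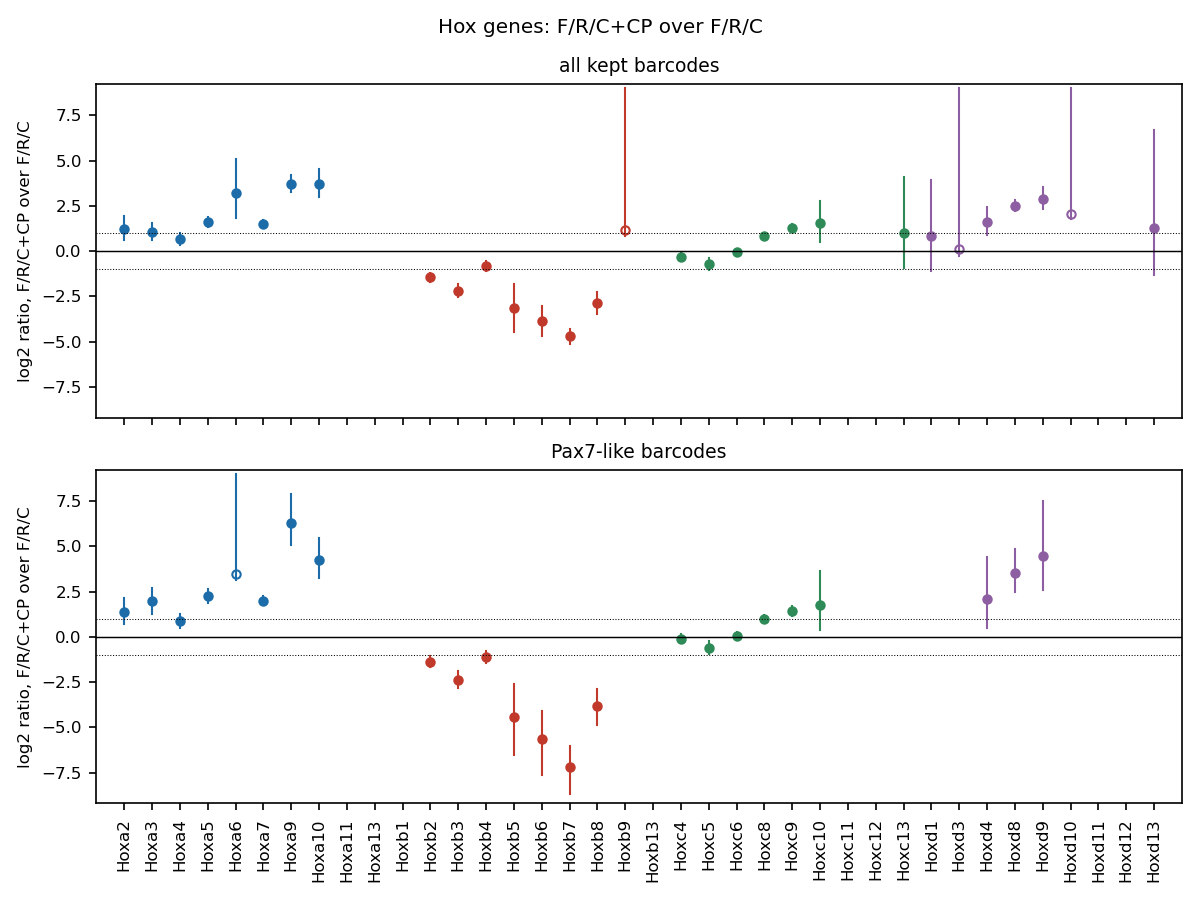
Log2 ratio of F/R/C+CP relative to F/R/C for Hox genes with at least 10 counts over both libraries, in all kept barcodes (top) and in Pax7-like barcodes (bottom), with 95% intervals for counting error. Open points are bounds against a floor of 3 counts, and dotted lines mark -1 and 1. Hoxa (blue) and Hoxd (purple) points lie above 0, Hoxb2 to Hoxb8 (red) below it, and in all kept barcodes Hoxc (green) between -0.74 and 1.52.

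Within the Pax7-like class, cells with the satellite cell marker Pax7, the same order of clusters was seen with larger ratios. Of 25 members compared 13 were higher in F/R/C+CP and 7 lower, beside 11.9% and 13.8% of 16379 genes, and the members' median was 1.34 beside -0.10. All 7 lower members were Hoxb2 to Hoxb8, and 8 of the 13 higher ones were Hoxa genes. Hoxb7 was 6.55 CPM in Pax7-like F/R/C barcodes, from 104 counts, and 0.0443 CPM in Pax7-like F/R/C+CP barcodes, from 6 counts, a log2 ratio of -7.21 (-8.69 to -6.04). Hoxa9 was 0.315 CPM, from 5 counts, and 24.8 CPM, from 3359, a ratio of 6.30 (5.07 to 7.92). Hoxa10 had 4.24, Hoxd9 4.48 and Hoxd8 3.54. Hoxa7, at 8.32 and 33.2 CPM, had 2.0. Hoxc6 was 14.3 and 14.9 CPM and did not differ beyond its interval (-0.14 to 0.26). Barcodes named connective-like, pericyte-like or melanocyte-like at Louvain resolution 0.5 are outside this class. At resolution 0.3 the pericyte-like class of F/R/C+CP grew to 858 barcodes. Its leading genes then included Scg2, Areg and Spp1, which also led Pax7-like cluster 4 (1030 barcodes). Barcodes called pericyte-like at the lower resolution can thus be part of these ratios.

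In committed-like barcodes, which express the myogenic factors Myod1 and Myog, 8 of 22 members were higher in F/R/C+CP and 5 lower (11.7% and 9.68% of all genes). In muscle-like barcodes 6 of 24 were higher and 5 lower (10.6% and 8.75%). Hoxb7 had log2 ratios of -6.58 and -3.54 there, Hoxa9 2.12 and 1.29, and Hoxd8 3.21 and 1.34. These ratios were nearer to 0 in muscle-like than in Pax7-like barcodes, a difference that was not tested. Muscle-like barcodes of F/R/C+CP held Hoxb7 at 0.263 CPM, from 20 counts in 17 of 2031 barcodes. The committed-like class of F/R/C+CP included cluster 8 (119 barcodes), with Myog at 413 CPM against 1659 and 1155 CPM in clusters 2 and 6. Pkhd1, Fgf13, Ctnna3, Dmd and Rbfox1 were among its leading genes, as in F/R/C cluster 9 (68 barcodes), which stayed unnamed. The committed-like classes thus differed in make-up, and the effect on their ratios was not tested.

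The depth of the libraries overlapped only between 12097 and 23465 UMIs, where 190 F/R/C barcodes and 6213 F/R/C+CP barcodes remained. There Hoxb7 had a log2 ratio of -4.71 and Hoxa9 of 3.38 between the libraries, close to the values over all kept barcodes. Hoxd8 had 0.81 (0.10 to 1.62) in place of 2.50 and Hoxd9 1.03 (-0.10 to 2.49) in place of 2.89. Of these 4 genes, the Hoxd members moved most. Within the Pax7-like class, where 57 and 4391 barcodes remained, Hoxb7 had -6.95 (-8.79 to -5.15), Hoxa9 4.16 (1.68 to 9.47) in place of 6.30, Hoxa5 0.84 (-0.21 to 2.15) in place of 2.27 and Hoxd8 1.96 (-0.53 to 7.26) in place of 3.54. Directions held for these genes, and the intervals of Hoxa5 and Hoxd8 reached 0. Hoxb4, at -1.13 over the whole Pax7-like class, changed sign in this range. Of 41 single-gene ratios taken in the shared range, 21 left the interval they had without the limit.

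Pax7-like and muscle-like barcodes were compared within each library to see how Hox RNA differed between progenitor-like and differentiated states of 1 clone. For F/R/C 9 of 23 members were higher in Pax7-like barcodes and 6 lower, beside 38.7% higher and 10.5% lower of 13562 genes. The members' median was 0.68, equal to that of all genes. For F/R/C+CP 10 of 32 were higher and 14 lower, beside 34% and 15.3% of 17356 genes, with a median of -0.27 beside 0.50. Of the 22 members compared in both libraries, 14 had the same sign (63.6%), beside 86.0% of 13534 genes. Against committed-like barcodes, 7 of 20 members were higher in Pax7-like ones and 2 lower in F/R/C (22.7% and 7.95% of all genes), and 11 of 28 and 4 in F/R/C+CP (17.6% and 8.65%). Past 1 over muscle-like barcodes in both libraries, Hoxa4, Hoxb2, Hoxc4, Hoxc5 and Hoxc8 were higher in Pax7-like barcodes and Hoxd4, Hoxd8 and Hoxd9 were higher in muscle-like barcodes. These were 5 and 3 of the 22 members, beside 3729 and 1139 of 13534 genes. The share higher in Pax7-like barcodes was thus not above that of all genes.

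Hoxd8 was higher at each step from Pax7-like to committed-like to muscle-like barcodes in both libraries. It was 0.441 CPM in Pax7-like (7 counts), 2.32 CPM in committed-like (13 counts) and 13.4 CPM in muscle-like barcodes (57 counts) of F/R/C. Those of F/R/C+CP had 5.12, 21.5 and 34.0 CPM, from 694, 1152 and 2591 counts. Muscle-like barcodes were highest in both libraries and Pax7-like lowest, with a log2 ratio of Pax7-like over muscle-like of -4.93 (-6.30 to -3.79) and -2.73 (-2.85 to -2.61). With each F/R/C+CP barcode thinned to 12000 UMIs, Hoxd8 was found in 6.12% of Pax7-like, 20.7% of committed-like and 30.7% of muscle-like barcodes, against 10.2%, 35.3% and 57.5% before thinning. By cluster, it reached 53.5 CPM in F/R/C muscle-like cluster 7 (13 counts in 87 barcodes) and 48.9 CPM in F/R/C+CP muscle-like cluster 5, and was not counted in F/R/C Pax7-like cluster 3. RNA of 12 muscle markers in Pax7-like barcodes stood at 1.28% of its muscle-like level in F/R/C, with 7.37% in F/R/C+CP, while Hoxd8 stood at 3.29% and 15.1%. The part of muscle RNA outside muscle cells in the Pax7-like Hoxd8 level was not tested.

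The neighbours of Hoxd8 in the cluster went with it. Hoxd9 was 0.126 CPM in Pax7-like and 3.76 CPM in muscle-like barcodes of F/R/C, from 2 and 16 counts, and 2.80 and 12.3 CPM in F/R/C+CP (log2 ratios -4.90 and -2.13). Hoxd4 had -3.32 and -1.60. Hoxd10 and Hoxd1 were counted often enough only in F/R/C+CP, with -3.24 (1.18 CPM in muscle-like barcodes) and -2.61, as were Hoxd3 with -2.02 and Hoxd13 with -1.25 (-2.67 to 0.12). No Hoxd member that could be compared was higher in Pax7-like barcodes in either library.

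Several Hoxc genes, Hoxc4, Hoxc5 and Hoxc8 among them, were higher in Pax7-like barcodes instead. Hoxc8 was 14.9 CPM in Pax7-like, 6.25 CPM in committed-like and 3.76 CPM in muscle-like barcodes of F/R/C, and 29.8, 11.2 and 7.74 CPM in F/R/C+CP. The log2 ratio of Pax7-like over muscle-like was 1.99 (1.26 to 2.82) and 1.94 (1.82 to 2.07), which is above the median of all genes in both libraries. Hoxc6 was 14.3, 6.25 and 8.47 CPM in F/R/C and 14.9, 6.64 and 7.97 CPM in F/R/C+CP, with ratios of 0.76 and 0.90. Hoxc9 was flat in F/R/C, at 6.55, 4.82 and 6.82 CPM, and in F/R/C+CP it was 17.6, 11.8 and 11.6 CPM (0.60). Hoxc4, at the head end, had ratios of 1.38 and 1.65. At the tail end, counted often enough only in F/R/C+CP, Hoxc13 was 0.0443 CPM in Pax7-like and 0.407 CPM in muscle-like barcodes, a ratio of -3.20 (-4.75 to -1.92) with the same sign as Hoxd, and Hoxc10 had -0.41 (-0.83 to 0.01).

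For Hoxa7 and Hoxa9 the direction depended on the library. It did not for all Hoxa genes, since Hoxa4 had log2 ratios of Pax7-like over muscle-like of 1.30 and 1.95. Hoxa9 was lowest in the Pax7-like class of F/R/C, at 0.315 CPM against 2.14 CPM in committed-like and 3.53 CPM in muscle-like barcodes, and highest in that class of F/R/C+CP, at 24.8 against 9.32 and 8.62 CPM. The log2 ratio of Pax7-like over muscle-like was -3.49 (-5.30 to -1.95) in F/R/C, from 5 and 15 counts, and 1.52 (1.40 to 1.65) in F/R/C+CP. Hoxa7 was 8.32, 12.9 and 12.2 CPM in F/R/C and 33.2, 23.9 and 21.9 CPM in F/R/C+CP, with ratios of -0.56 (-1.03 to -0.06) and 0.60 (0.52 to 0.68). Hoxa5 was 3.66, 3.75 and 4.94 CPM in F/R/C, with overlapping intervals, and 17.6, 5.48 and 5.04 CPM in F/R/C+CP, a ratio of 1.81. Whether the class ratios differ between the libraries was not tested, since there is 1 library of each.

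**Figure D3:**
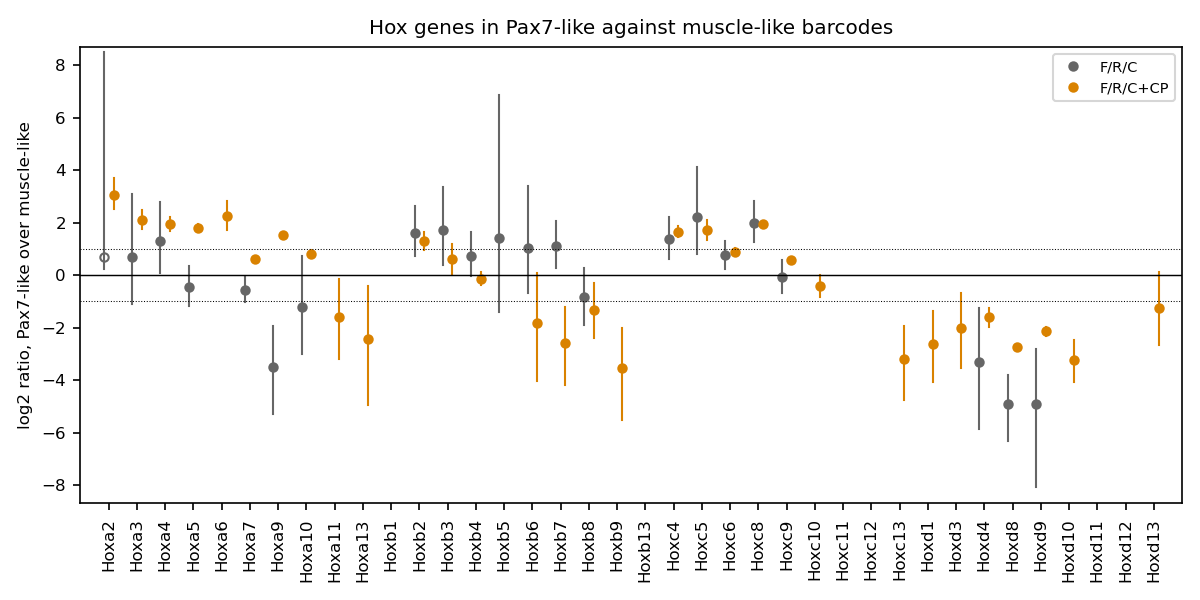
Log2 ratio of Pax7-like over muscle-like barcodes in F/R/C (grey) or F/R/C+CP (orange) for Hox genes with at least 10 counts over both classes, with 95% intervals for counting error. The open point is a bound, its bar is drawn to the frame, and dotted lines mark -1 and 1. Hoxd4, Hoxd8 and Hoxd9 lie below -1 and Hoxc4, Hoxc5 and Hoxc8 above 1 in both libraries, while Hoxa9 and Hoxb7 lie on opposite sides of 0.

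The upstream sequences of Hoxd8, Hoxa9 and Hoxb8 are given because these genes stood for the patterns above: higher in muscle-like barcodes of both libraries, higher in F/R/C+CP, and lower in F/R/C+CP. Each run is the 250 bases before the RefSeq start, 5′ to 3′ on the strand of the gene, in build GRCm38.p6, which is not the GRCm39 build of the count files. Capitals mark CANNTG, the E-box core that MyoD and its relatives bind.
Hoxd8 (chr2:74704365-74704614, plus strand): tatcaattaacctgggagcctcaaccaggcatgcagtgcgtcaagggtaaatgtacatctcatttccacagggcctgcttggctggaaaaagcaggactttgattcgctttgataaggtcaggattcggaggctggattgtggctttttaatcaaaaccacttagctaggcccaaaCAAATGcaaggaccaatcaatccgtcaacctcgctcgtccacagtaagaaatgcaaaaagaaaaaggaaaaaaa
Hoxa9 (chr6:52227371-52227620, minus strand): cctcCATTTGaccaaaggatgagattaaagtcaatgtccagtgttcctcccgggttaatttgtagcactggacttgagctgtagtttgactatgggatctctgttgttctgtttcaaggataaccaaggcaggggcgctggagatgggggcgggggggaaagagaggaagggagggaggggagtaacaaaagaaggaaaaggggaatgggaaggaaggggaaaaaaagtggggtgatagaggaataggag
Hoxb8 (chr11:96281655-96281904, plus strand): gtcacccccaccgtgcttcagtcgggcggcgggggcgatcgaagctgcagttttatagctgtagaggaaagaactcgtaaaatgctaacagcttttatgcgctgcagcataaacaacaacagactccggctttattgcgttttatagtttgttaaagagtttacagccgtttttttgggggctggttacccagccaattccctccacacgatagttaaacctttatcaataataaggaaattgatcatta
In GENCODE M21 none of the 3 windows overlapped an exon. The Hoxd8 window lay in an intron of the antisense gene Hoxd3os1, the Hoxa9 window in introns of longer non-coding transcripts of Hoxa9 itself, and the Hoxb8 window in no transcript.

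RefSeq gave such windows for 22 of the 39 members, Hoxb7 not among them. Motifs were searched on both strands. CANNTG was found in 16 of the 22 Hox windows and in 66.0% of 27025 promoter windows of the same length, and CAGCTG, a form of it, in 3 of 22 and 12.8%. TATAAA was found in 3 of 22 and 13%, and TGATNNAT, the joint Hox and Pbx form, in 3 of 22 and 7.91%. The Hoxd8 and Hoxa9 windows each held the E-box core once, 74 and 246 bases before the start. The Hoxb8 window had no E-box core, and held the TATA motif at 2 positions and the joint Hox and Pbx motif once. A match here describes the letters and does not show binding.

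In both libraries 1 Pax7-like cluster stood apart from the others by low Cdkn1c, a cell cycle inhibitor, and the comparison within the Pax7-like class was added after its Hox values had been seen. Cdkn1c was 64.7 CPM in F/R/C cluster 3 (596 barcodes) against 2922 and 3042 CPM in clusters 0 and 2, and 1094 CPM in F/R/C+CP cluster 4 (1030 barcodes) against 2313 and 2046 CPM in clusters 0 and 1. The gap was far smaller in F/R/C+CP. Leading genes included Prkcb, S100a8 and Rorb in F/R/C cluster 3, but Scg2, Areg and Spp1 in F/R/C+CP cluster 4. At Louvain resolution 0.3 the latter genes were among those leading the pericyte-like class, so these clusters cannot be taken as the same state. The F/R/C cluster had 1 of 17 members higher and 8 lower, beside 7.33% and 7.46% of all genes. The F/R/C+CP cluster had 4 of 23 higher and 3 lower, beside 12.5% and 4.56%. Of 14 members compared in both, Hoxb2 alone was higher in both, beside 347 of 13127 genes. It was 16.1 CPM in F/R/C cluster 3 against 5.06 and 5.01 CPM in clusters 0 and 2. In F/R/C+CP cluster 4 it was 15.4 CPM against 0.867 and 1.01 CPM in clusters 0 and 1. The log2 ratios were 1.68 (1.15 to 2.21) and 4.02 (3.70 to 4.34). Hoxb3, Hoxb4 and Hoxb8 were higher as well in F/R/C+CP, at 3.15, 2.19 and 3.13.

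Among Hoxa members, Hoxa2 (by a bound), Hoxa3, Hoxa4, Hoxa5 and Hoxa7 were past -1 in F/R/C, where Hoxa9 and Hoxa10 had too few counts to compare. These 2 were the Hoxa members past -1 with CP. Hoxa7 in F/R/C cluster 3 was 0.481 CPM, from 2 counts, against 11.8 and 10.4 CPM in clusters 0 and 2 (log2 ratio -4.53, -7.59 to -2.65). Hoxb7 was 1.44 against 9.31 and 7.34 CPM there (-2.54). Hoxa7 in F/R/C+CP cluster 4 was 18.3 CPM against 36.0 and 35.6 CPM (-0.97, short of the threshold), Hoxa9 10.7 against 25.3 and 28.6 CPM (-1.34) and Hoxc8 11.7 against 30.9 and 34.4 CPM (-1.49). By contrast, Hoxc8 of F/R/C was 19.0 CPM in cluster 3 and 15.4 and 11.5 CPM in the others (0.49). Bgn, a connective tissue marker, was 57.7 CPM in F/R/C+CP cluster 4 against 3.47 and 3.24 CPM in clusters 0 and 1, and 3.61 CPM in F/R/C cluster 3 against 2.12 and 1.07 CPM. Its part in the Hoxb2 difference was not tested.

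**Figure D4:**
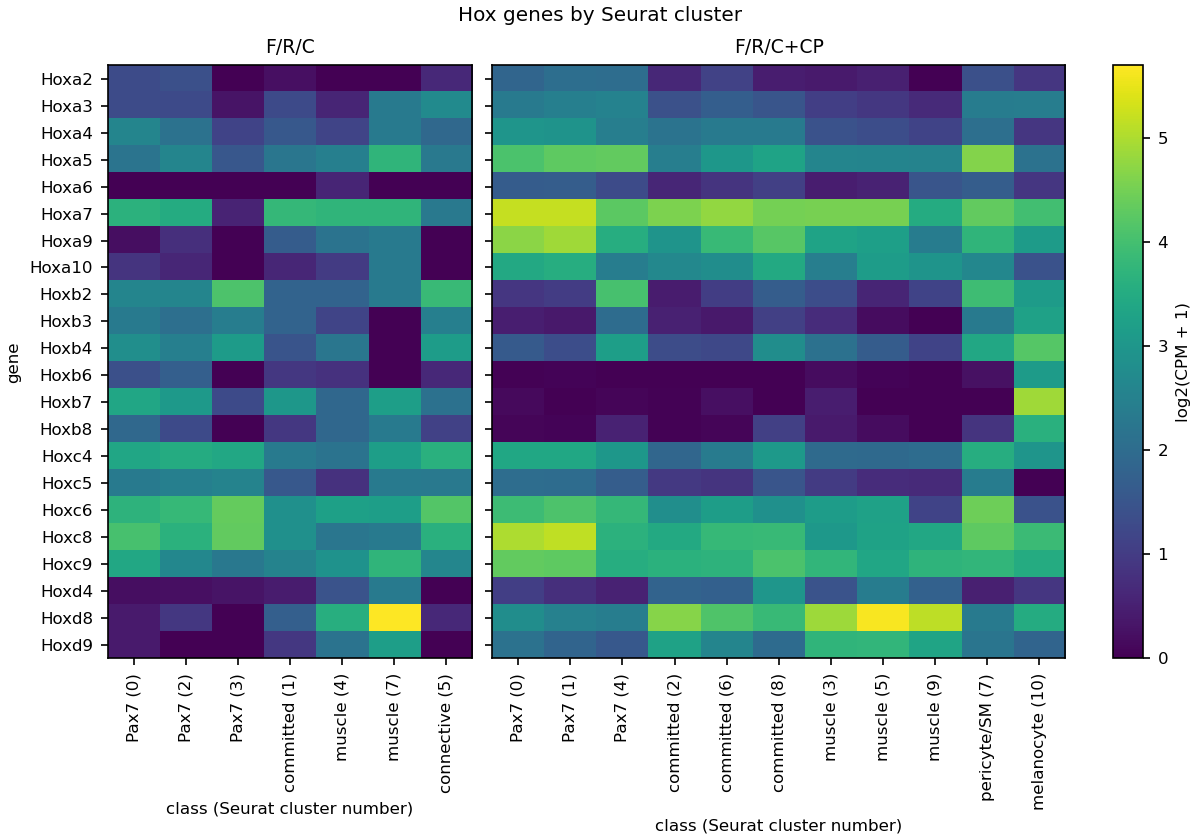
Level of the Hox genes at 1 CPM or more in either library, as log2(CPM + 1), in each named Seurat cluster of F/R/C (left) or F/R/C+CP (right). Columns are grouped by class with the cluster number in brackets. Hoxd8 is brightest in the muscle-like columns of both libraries, Hoxb2 is bright in Pax7-like clusters 3 of F/R/C and 4 in the other library and in the connective-like and pericyte-like columns, and Hoxb6 to Hoxb8 in F/R/C+CP are brightest in the melanocyte-like column.

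The non-myogenic classes of F/R/C+CP carried different Hox sets from the myogenic barcodes beside them. The melanocyte-like cluster is pigment-cell-like by its leading genes Dct, Tyrp1 and Pmel, with 6 of 7 melanocyte markers at 10 CPM or more. Pigment cells arise from the neural crest rather than from the mesoderm that gives muscle. Compared with the 10580 myogenic barcodes, 9 of 25 members were higher and 7 lower, beside 24.4% and 8.23% of 13788 genes. All 8 Hoxb members that could be compared, Hoxb2 to Hoxb9, were among the 9. Hoxb supplied 56.4% of the Hox counts of these 59 barcodes, 124 of 220.

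Hoxb7 was 28.4 CPM (33 counts in 20 barcodes) in the melanocyte-like cluster, 0.113 CPM in the myogenic barcodes and not counted in the pericyte-like ones, a log2 ratio over the myogenic barcodes of 7.97 (7.21 to 8.74). Hoxb9 was 23.2 CPM against 0.128 CPM (7.50, 6.72 to 8.27). After thinning to 12000 UMIs, Hoxb7 was found in 28.8% of melanocyte-like barcodes (95% Clopper-Pearson interval 17.8 to 42.1) and 0.0789% of Pax7-like ones, and Hoxb9 in 32.2% and 0.0473%. Without thinning the shares were 33.9% and 0.0946% for Hoxb7 and 35.6% and 0.0631% for Hoxb9. Hoxb6 had a ratio of 7.42, Hoxb5 6.42, Hoxb8 6.18, Hoxb3 3.83, Hoxb4 2.74 and Hoxb2 1.91. The shares of Hoxb7 and Hoxb9 in these barcodes had overlapping intervals. The F/R/C library, where Hoxb7 was counted in every named class, held no Hoxb9 count.

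Members abundant in the myogenic cells of that library were lower in the melanocyte-like cluster. Hoxc6 was 1.72 CPM, from 2 counts, against 11.2 CPM (-2.71, -5.75 to -0.85), Hoxa5 3.44 against 11.6 CPM (-1.75) and Hoxa9 7.75 against 17 CPM (-1.14). Hoxa7 was 14.6 against 28.1 CPM (-0.94), Hoxc8 13.8 against 19.7 CPM (-0.51, -1.32 to 0.19), Hoxc9 10.3 against 14.7 CPM and Hoxd8 10.3 against 16.7 CPM, the last 3 within counting error. RNA of the 12 muscle markers stood at 9.64% of its muscle-like level in these barcodes. The part of RNA from other cells in the Hox levels of this cluster was not tested. In the myogenic classes of that library Hoxb5 to Hoxb9 were at or below 0.341 CPM.

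**Figure D5:**
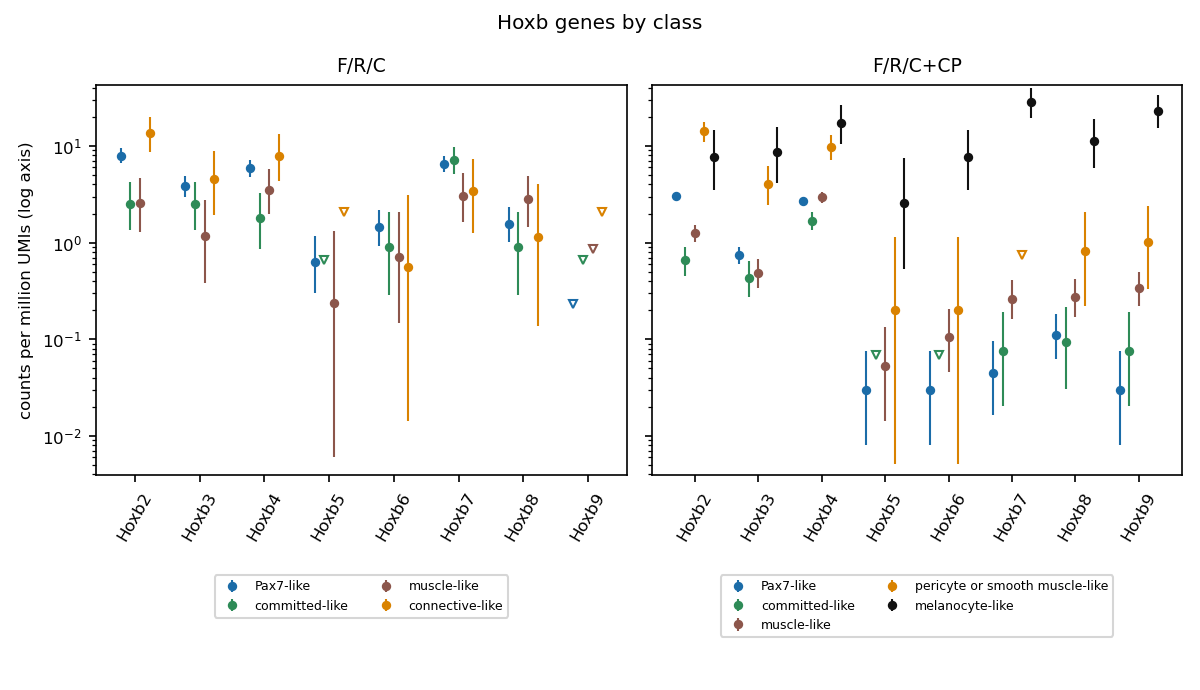
Level of Hoxb2 to Hoxb9 by class in F/R/C (left) or F/R/C+CP (right), in counts per 1000000 UMIs on a log axis, with 95% Poisson intervals. Open triangles mark classes with no count at the upper limit of the interval. In F/R/C+CP the melanocyte-like class (black) is the highest for every gene but Hoxb2, and in F/R/C Hoxb9 has no count in any class.

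The pericyte or smooth muscle-like cluster, led by contractile genes such as Myh11 and Cnn1, also had more head-end Hoxb RNA than the myogenic barcodes. Here 10 of 27 members were higher than in myogenic barcodes and 2 lower, beside 23.5% and 9.57% of 15849 genes. Hoxb2 was 14.2 CPM against 2.06 CPM (2.79, 2.41 to 3.15), Hoxb3 4.05 against 0.607 CPM (2.74) and Hoxb4 9.73 against 2.57 CPM (1.92). The melanocyte-like cluster had more Hoxb3 and Hoxb4, at 8.61 and 17.2 CPM. Pax7-like cluster 4, which is among the myogenic barcodes, had a like Hoxb2 level, as given above. It also held Hoxb3 at 3.07, Hoxb4 at 8.10, Hoxa5 at 19.2 and Hoxd8 at 4.33 CPM. Such levels were thus not particular to the pericyte-like cluster. Hoxa5 was the highest Hoxa gene in the pericyte-like cluster at 24.1 CPM, against 11.6 CPM (1.06). Hoxa7 was 19.3 CPM, Hoxa9 12.2 CPM, Hoxc6 20.9 CPM, Hoxc8 18.7 CPM and Hoxc9 12.6 CPM, none past 1 on the log2 scale. Hoxd8 was 4.05 CPM against 16.7 CPM (-2.04) and was lower here than in muscle-like barcodes. The muscle markers stood at 8.46% of the muscle-like level.

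The connective-like cluster of F/R/C had 2 of 17 members higher and 3 lower than myogenic barcodes, beside 11.2% and 8.55% of 13368 genes. Hoxb2 was 13.6 CPM against 5.87 CPM (1.21, 0.52 to 1.84) and Hoxa3 5.65 against 1.13 CPM (2.33), while Hoxa7 was 3.96 against 9.95 CPM (-1.33). Hoxa5 was 3.96 CPM, Hoxc6 16.95 CPM, Hoxc8 11.3 CPM, Hoxc9 5.09 CPM and Hoxd8 0.565 CPM, and Hoxa9 was not counted. This cluster was led by Bgn and Col1a1, yet its Pax7 level was 110.6% of that of the Pax7-like class, and 8 of 9 Pax7-like markers reached 10 CPM in it. It is thus not clearly outside the progenitor-like cells. The unnamed F/R/C clusters held 46 Hox counts in all, too few to describe by gene.

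The cofactor, Polycomb, Trithorax, and Cdx and retinoic acid lists had median log2 ratios from -0.31 to -0.05 between the libraries. Of 13 TALE cofactors, which bind DNA beside Hox proteins, none was higher in F/R/C+CP and Pbx3, Tgif1 and Meis3 were lower, with a median of -0.31. Pbx3 was 123.3 CPM in F/R/C, with 55.1 CPM in F/R/C+CP (-1.16), Pbx2 25.4 and 15.9 CPM (-0.68) and Tgif1 26.4 and 6.83 CPM (-1.95). Of 19 Polycomb genes none was higher and 1 lower (median -0.05), the PRC2 accessory gene Phf19 at 3.84 and 0.674 CPM (-2.51). Of 12 Trithorax and H3K27 demethylase genes none was higher and 1 lower (-0.08), Men1 at 17.3 and 7.56 CPM (-1.19). Phf19, Men1 and Meis3 were picked for their values. Suz12, a core Polycomb subunit, was 94.0 and 83.0 CPM (-0.18), and its partner Eed 48.4 and 45.4 CPM (-0.09). Phc2 had -0.57 and Kdm2b -0.75. On the other side Kdm6a, a demethylase that removes the Polycomb mark, had -0.63, Kdm6b -0.35, Wdr5 -0.44 and Ash2l 0.34. The share of all genes past 1 was 12.4% higher and 13.6% lower, as above.

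Among the 19 Cdx and retinoic acid genes 16 could be compared, of which 4 were higher and 4 lower (median -0.05). The higher ones were Rarb, Rxrg and the synthesis enzymes Aldh1a2 (3.93) and Aldh1a3 (2.86), and the lower ones Rxra (-1.10), Cyp26a1 (-1.56), Rdh10 (-1.62) and Crabp1 (-1.18). The retinoic acid receptor Rarb, itself a target of the pathway, was 14.6 CPM in F/R/C, with 51.7 CPM in F/R/C+CP (1.82, 1.68 to 1.97), and Rxrg 10.6 and 31.9 CPM (1.58). Rara had -0.58 and Rxrb -0.73. Cdx2 and Cdx4 had no count in either library. Of 46 other genes of body position 32 could be compared, 10 higher and 4 lower, with a median of 0.30. Alx1, a head mesenchyme gene, was 11.7 and 52.2 CPM (2.16), and Tbx2, a limb and flank gene, 13.5 and 38.5 CPM (1.51). The 4 lower genes were Pax3, Pdx1, Emx2 and Pitx1. Aldh1a2, Aldh1a3, Rxra, Cyp26a1, Rdh10, Crabp1, Pdx1 and Emx2 are named here to complete these counts, also after their values had been seen. Pax3, which marks muscle precursors of trunk and limb, was 25.2 and 5.88 CPM (-2.10), and Shox2 25.5 and 13.3 CPM (-0.94). Pax3 was also a leading gene of the melanocyte-like cluster, whose barcodes are part of its F/R/C+CP level. Tbx5, which marks the forelimb field, is named after its values had been seen: it had no count in F/R/C and 1833 counts, 6.76 CPM, in F/R/C+CP, a log2 ratio of at least 5.97. The hindlimb genes Tbx4 and Pitx1 were 0.431 and 0.108 CPM in F/R/C, against 0.321 and 0.0405 CPM in F/R/C+CP.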

How the data were processed

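The values analysed are UMI counts as deposited, raw per gene in every barcode. According to the submitters' processing notes the reads were mapped to GRCm39, with Cell Ranger 7.0.0, STARsolo and Seurat 4.2.1 as the tools. Removal of free RNA is described for F/R/C+CP, but the deposited counts are whole numbers, so it cannot be told whether they were corrected. Barcodes with at least 250 genes and no more than 4000 in F/R/C and 7000 with CP, up to 15% mitochondrial and 40% ribosomal counts were kept, and each library was clustered without Hox genes in Seurat 5.3.0 (R 4.3.3; 2000 variable genes, 30 components, Louvain resolution 0.5). Clusters were named from marker lists, where at least 3 markers had to be raised 1.5 times, so class names can differ from the study's. Scrublet (scanpy 1.11.5) called 4 and 299 barcodes, and none was removed.

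Counts were summed per library or class and divided by the total, scaled to 1000000 (CPM). Kept totals were 27850218 and 271351748 UMIs, and each deposited F/R/C+CP barcode had at least 12097 UMIs against 500 in F/R/C. Ratios were taken for genes with at least 10 counts over both sums, with a floor of 3 counts for 0 and 95% exact Poisson, conditional binomial or Clopper-Pearson intervals. PCR, capture and culture add error that these do not cover. With 1 library per group no p-value was computed. Genes at 10 CPM in either library were named with all class values, as were 4 genes per list by size of ratio among those at 20 CPM. Other members named, among them Hoxb2, Hoxb7, Hoxb9 and Hoxd9, were picked after their values were seen. Members and lists were chosen with earlier results of these data known. Values of 2 genes are not reported here, in the text or in the plots, while sums and counts include them. The ratio step was tested on simulated counts. Alternatives were all barcodes, no gene limit, a shared depth range, a higher count minimum, centring on the median, clustering with Hox genes, a lower resolution and removal of likely doublets.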

Additional observations from a re-analysis of the deposited data

Results flagged for a closer look

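The same contrast between classes had opposite signs in the libraries for a few members, with intervals on opposite sides of 0. With 1 library each, the difference between the libraries was not tested. For Pax7-like over muscle-like barcodes the log2 ratio of Hoxa7 was -0.56 in F/R/C but 0.60 in F/R/C+CP, that of Hoxa9 -3.49 and 1.52, and that of Hoxb7 1.10 and -2.57. For Pax7-like over committed-like barcodes Hoxa7 had -0.63 and 0.48, and Hoxa9 -2.77 and 1.41. In the low-Cdkn1c cluster over the other Pax7-like clusters, Hoxb8 had a bound of -1.56 in F/R/C, where it was not counted in that cluster, and 3.13 in F/R/C+CP, Hoxc6 had 0.64 and -0.24, and Hoxc8 had 0.49 and -1.49. The Hoxb7 value of F/R/C+CP rests on 6 counts in Pax7-like and 20 in muscle-like barcodes, and the Hoxa9 value of F/R/C on 5 and 15.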

How the results depend on the processing

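With barcodes limited to the depth range that the libraries share (190 in F/R/C, 57 of them Pax7-like), members lower in F/R/C+CP numbered 3 over all kept barcodes and 4 in the Pax7-like class, listed genes lower numbered 5, and Hoxb4 in the Pax7-like class changed sign to 1.20. Fewer genes could be compared there, so these counts cannot be set against those above. With at least 50 counts in place of 10, lower members numbered 4 between Pax7-like classes, 1 in F/R/C but 4 in F/R/C+CP for Pax7-like over muscle-like and 4 in the low-Cdkn1c cluster of F/R/C, and higher members 1 in connective-like and 6 in pericyte-like barcodes. Members below that minimum dropped out, so a smaller count there is not a weaker difference. At 5 CPM 7 members passed in F/R/C. At Louvain resolution 0.3 the pericyte-like class grew to 858 barcodes, with 5 members higher and 5 lower, and Hoxa11 (-0.57) and Hoxd10 (-0.15) changed sign. With the highest doublet scores removed, 5 members were lower in the low-Cdkn1c cluster of F/R/C+CP. The share of all genes past the threshold under each setting is not given here, so these counts are not results about the members. Centring on the median left all 56 single-gene ratios within their intervals. Clustering with Hox genes left all 180 too, but no Hox gene was among the 2000 variable genes, so that result was fixed in advance. Of 41 ratios in the shared depth range, 21 left their interval and 1 changed sign. No paired analysis was possible because each group has 1 library. Over all deposited barcodes 30 of 31 ratios stayed within their interval and Hoxd8 did not. Without the melanocyte-like barcodes, a choice made after seeing the data, 15 members were higher and 6 lower, and 29 of 31 ratios stayed within their interval, Hoxb7 and Hoxb9 being the others. A count of 0 allowed up to 0.132 CPM in F/R/C but 0.0136 CPM in F/R/C+CP.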
